A study of Mus musculus with 6 samples.

Results

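The 9 genes described here encode enzymes of the mevalonate arm of cholesterol synthesis, from acetyl-CoA to squalene epoxide. They were *Acat2*, *Hmgcs1*, *Mvk*, *Pmvk*, *Mvd*, *Idi1*, *Fdps*, *Fdft1* and *Sqle*, taken by gene name from an RNA-seq table of 16300 genes and read in pathway order. All 9 were among the 16292 genes tested. DHT treatment raised the transcripts of all 9 genes in mouse granulosa cells (GCs), from 1.60-fold for *Pmvk* to 2.61-fold for *Fdps*, at an adjusted p of at most 0.05 in limma. Among all genes tested, 6.52% were called higher by the same rule. The normalized counts of the 9 genes summed to 29584 ± 1154 per control library and 55611 ± 2386 per DHT library (SD, n = 3).

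The mevalonate arm joins acetyl-CoA units into mevalonate, phosphorylates and decarboxylates it to an isoprene unit, and condenses isoprene units to farnesyl diphosphate and then to squalene. Squalene goes on to lanosterol and cholesterol, while farnesyl diphosphate also feeds protein prenylation, ubiquinone and dolichol. Transcription of these enzymes is known to be driven by SREBP2 when sterols in the endoplasmic reticulum run low, and steroid-producing cells of the ovary use cholesterol as the substrate of steroid hormones. The 9 genes do not cover every enzymatic step of the arm.

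Granulosa cells line the ovarian follicle around the oocyte, and DHT is an androgen that aromatase does not turn into estrogen. The GCs came from wild type C57BL/6J mice aged 8 to 9 weeks on the day of estrus and were grown in serum, starved of it and then kept in serum-free medium. These conditions were the same for all libraries, and the groups differed in treatment, with medium for the 3 control libraries and 25 nM DHT for 24 h for the 3 DHT libraries. Each library held the pooled GCs of 5 mice, and the sources do not say which libraries came from the same pool. The labels call the extracted material whole ovary and name DHT in the treatment text of every sample, so the groups rest on the characteristic that separates control from DHT.

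The values of each library were whole multiples of one step, within 0.0001 of a step. If 1 step is 1 read, which could not be established for 3 of the 6 libraries, they hold 36111177 to 41928585 reads on genes. Of 13 granulosa cell markers 12 were in the table. Their summed normalized counts ranged from 216356 to 237384 in control and from 199271 to 218441 in DHT libraries, with 1 higher, 3 lower and 8 that did not pass. The largest falls among them were those of *Kitl* (-0.85 on the log2 scale) and *Inha* (-0.61). The 1 called higher was *Hsd17b1* (0.48), and the median of the list was -0.05. Over all genes tested 6.52% were called higher and 4.66% lower. Of 5 luteal markers 2 were higher, *Ptgfr* (1.95) and *Prlr* (0.92), with sums of 9824 to 12948 in control and 15680 to 17666 in DHT libraries and a median log2 fold change of 0.92 over the list. Of 7 stromal markers 2 were higher, *Acta2* and *Myh11*, with sums of 8048 to 11136 in control and 12611 to 14145 in DHT libraries. *Acta2* made up most of that difference, with 4293 to 6425 and 8217 to 9735 normalized counts. The median log2 fold change of the stromal list was -0.13, and its lowest, that of *Dcn*, was -1.05 (adjusted p = 0.102). Of 6 immune markers 1 was lower, and none of the 3 theca, 4 endothelial, 7 surface epithelium and 9 oocyte markers passed. DHT replicate 2 stood apart in oocyte transcripts, with *Zp3* and *Dppa3* listed at 0. The part of these shifts in the levels of the 9 genes was not tested, and in bulk libraries a change in cell make-up and a change in RNA per cell cannot be told apart. Without DHT replicate 2 all 9 genes were still called, with a largest adjusted p of 0.00381.

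Promoter windows from RefSeq (GRCm38.p6) are shown because these genes moved together. RefSeq windows of 300 bases, from 250 before to 50 after the transcription start, were given for 6 of the 9 genes and not for *Fdps*, *Fdft1* and *Sqle*. The core of the sterol regulatory element (TCACNCCAC, either strand) occurred in 1 of the 6, *Hmgcs1*, where it began at position -137, counted back from -1 at the base before the start. It was present in 1.24% of all 32851 mouse windows and in 1.22% of the 14478 windows of tested genes. The NF-Y box (CCAAT, either strand) occurred in 5 of the 6 genes, all but *Acat2*, against 37.4% of all windows and 37.7% of those of tested genes. *Mvk* held 5 copies, *Hmgcs1* 4 (1 of them after the start), *Mvd* and *Idi1* 2 each, and the first of the *Pmvk* windows 1. The GC box (GGGCGG, either strand) occurred in 5 of the 6, all but *Pmvk*, against 35.7% of all windows and 60.3% of the windows of tested genes. These counts are of genes, while the shares are of windows. The 6 genes have 7 windows, 2 of them of *Pmvk*, and the NF-Y box and the GC box were each in 5 of the 7. The E-box CACGTG was in none of the 6 (7.15% of all windows and 9.55% of those of tested genes), and AGAACA, the hexamer of the androgen response element, was in *Hmgcs1* only (19.0% of all windows and 12.7% of those of tested genes). These letter matches are a description of the windows and not evidence of binding. None of the motifs searched overlapped in the printed stretches. The bases before the start are printed for *Hmgcs1*, which held the sterol regulatory element core, and for *Mvk*, *Pmvk* and *Mvd*, which encode the enzymes from mevalonate to isopentenyl diphosphate, 5′ to 3′ on the strand of the gene. For *Mvk* the stretch was limited to the 208 bases that no annotated exon of the neighbouring gene covers, and the others are 250 bases long. Capitals mark the sterol regulatory element core, NF-Y boxes and GC boxes. The stretches lie at chr13:119690101-119690350 (plus strand, *Hmgcs1*), chr5:114444061-114444268 (plus, *Mvk*), chr3:89454291-89454540 (plus, *Pmvk*) and chr8:122443423-122443672 (minus, *Mvd*).
*Hmgcs1*: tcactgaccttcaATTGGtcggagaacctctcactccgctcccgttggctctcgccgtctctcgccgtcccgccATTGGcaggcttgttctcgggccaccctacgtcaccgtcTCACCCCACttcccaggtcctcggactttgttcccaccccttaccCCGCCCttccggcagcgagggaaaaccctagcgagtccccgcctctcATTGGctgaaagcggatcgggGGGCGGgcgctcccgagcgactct
*Mvk*: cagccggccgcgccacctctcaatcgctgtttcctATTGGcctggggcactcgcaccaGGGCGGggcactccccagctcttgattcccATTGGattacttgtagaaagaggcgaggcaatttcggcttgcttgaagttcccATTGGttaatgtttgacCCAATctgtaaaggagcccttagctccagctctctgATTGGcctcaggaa
*Pmvk*: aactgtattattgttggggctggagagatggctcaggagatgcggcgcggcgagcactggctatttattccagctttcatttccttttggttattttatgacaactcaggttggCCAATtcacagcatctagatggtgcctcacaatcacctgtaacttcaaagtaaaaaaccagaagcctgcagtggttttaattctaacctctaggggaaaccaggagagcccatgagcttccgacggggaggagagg
*Mvd*: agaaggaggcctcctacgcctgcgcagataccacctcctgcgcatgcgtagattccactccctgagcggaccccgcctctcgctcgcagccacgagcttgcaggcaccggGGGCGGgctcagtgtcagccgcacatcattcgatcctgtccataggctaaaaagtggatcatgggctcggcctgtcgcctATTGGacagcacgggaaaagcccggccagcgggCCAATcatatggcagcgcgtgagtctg

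The first 2 enzymes build HMG-CoA from acetyl-CoA. *Acat2* (ENSMUSG00000023832, chr17:12942890-12960747, minus strand, GRCm38) encodes the cytosolic thiolase that joins acetyl-CoA units into acetoacetyl-CoA. Its normalized counts were 1498, 1639 and 1516 in control and 3769, 3882 and 3870 in DHT-treated GCs. The lowest DHT library lay 2.30-fold above the highest control library, the widest gap among the 9 genes. The log2 fold change was 1.31 (SE 0.05, adjusted p = 5.39e-06), and *Acat2* had the smallest p of all genes tested. *Hmgcs1* (ENSMUSG00000093930, chr13:119690379-119708260, plus strand) encodes the cytosolic HMG-CoA synthase and carries in its promoter the sterol regulatory element core printed above. Its counts were 14352, 14544 and 14095 in control and 23402, 24887 and 24919 in DHT-treated GCs. It was by count the most abundant of the 9 genes, its groups did not overlap, and its log2 fold change was 0.77 (SE 0.04, adjusted p = 2.98e-05).

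Mevalonate is then phosphorylated at 2 successive steps and decarboxylated. *Mvk* (chr5:114444269-114460591, plus strand) encodes mevalonate kinase, the first of these enzymes. It had 734, 756 and 828 normalized counts in control and 1221, 1344 and 1344 in DHT-treated GCs. Its groups were the closest among the 9 genes, with the lowest DHT library 1.47-fold above the highest control library. The log2 fold change was 0.75 (SE 0.06, adjusted p = 0.000196). *Pmvk* (chr3:89454541-89469013, plus strand), phosphomevalonate kinase, had 337, 360 and 349 counts in control and 571, 567 and 542 in DHT-treated GCs. It was the least abundant of the 9 genes and had the smallest estimate, a log2 fold change of 0.68 (SE 0.07, adjusted p = 0.000397). *Mvd* (chr8:122433601-122443422, minus strand), the decarboxylase that yields isopentenyl diphosphate, had 1185, 1333 and 1202 counts in control and 2408, 2728 and 2634 in DHT-treated GCs. The groups did not overlap, and the log2 fold change was 1.06 (SE 0.06, adjusted p = 4.18e-05).

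The isoprene unit is isomerized and condensed to farnesyl diphosphate. *Idi1* (chr13:8885501-8892451, plus strand) encodes the isomerase that makes dimethylallyl diphosphate. Its normalized counts were 1140, 1258 and 1236 in control and 2349, 2602 and 2508 in DHT-treated GCs. All DHT libraries lay above all control libraries, and the log2 fold change was 1.04 (SE 0.06, adjusted p = 2.98e-05). *Fdps* (chr3:89093588-89101959, minus strand) encodes farnesyl diphosphate synthase, the enzyme at the branch between sterols and other isoprenoids. Its counts were 2932, 3529 and 2949 in control and 7439, 8400 and 8692 in DHT-treated GCs. *Fdps* had the largest estimate, a log2 fold change of 1.38 (SE 0.08, adjusted p = 3.99e-05), and also varied most within groups, with a coefficient of variation of 10.8% in control and 8.02% in DHT-treated GCs.

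The last 2 enzymes commit farnesyl diphosphate to sterols. *Fdft1* (chr14:63145150-63179578, minus strand) encodes squalene synthase. It had 3325, 3696 and 3271 normalized counts in control and 5676, 6130 and 6066 in DHT-treated GCs, with a log2 fold change of 0.80 (SE 0.05, adjusted p = 6.85e-05). *Sqle* (chr15:59315077-59331192, plus strand) encodes squalene epoxidase, a rate-controlling enzyme downstream of squalene. It had 3322, 3797 and 3569 counts in control and 6019, 6447 and 6415 in DHT-treated GCs, with a log2 fold change of 0.82 (SE 0.05, adjusted p = 6.30e-05). The lowest DHT library was 1.54-fold above the highest control library for *Fdft1* and 1.59-fold for *Sqle*.

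**Figure D1:**
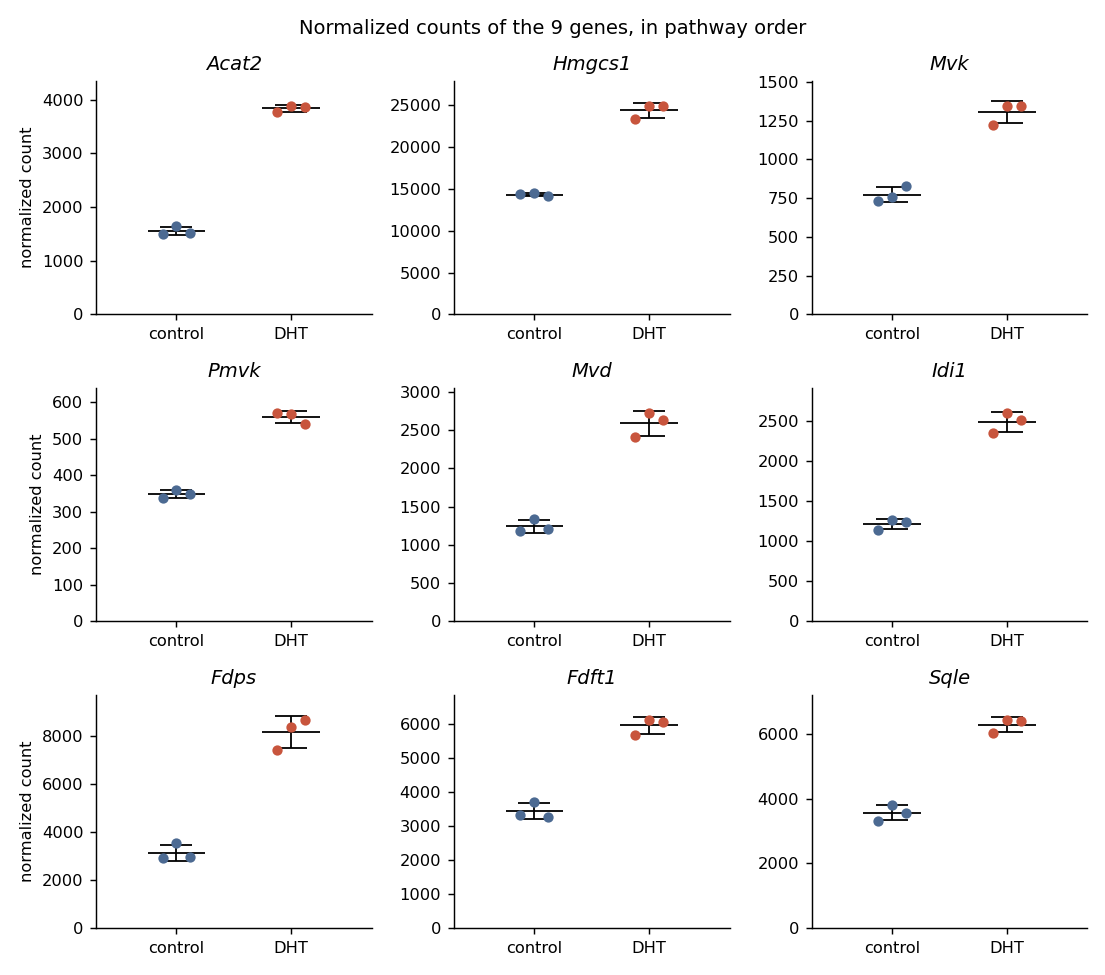
Normalized counts (vertical axes, from 0) of the 9 genes in pathway order in the 3 control (blue) and 3 DHT (red) libraries. Points are libraries and black lines the mean ± SD, and in every panel the 3 DHT libraries sit above the 3 control libraries.

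In all 9 genes every DHT library was above every control library, an order seen in 15.9% of all genes tested. A log2 fold change above 1 was reached by 4 of the 9 genes, *Acat2*, *Mvd*, *Idi1* and *Fdps*, against 0.908% of all genes tested. *Idi1* fell to 0.99 without control replicate 1, which left 3 of 9 above that size. The median log2 fold change of the 9 genes was 0.82, and that of all genes tested was -0.0052. The 9 genes together made up 0.0769% of the counts of a control library and 0.142% of those of a DHT library.

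The estimated rise ranged from 0.68 to 1.38 on the log2 scale among the 9 genes. For each of the 36 pairs of genes the log2 ratio of one to the other was compared between the groups with a two-sided exact permutation test, whose smallest possible p with 3 libraries per group is 0.1. In 24 of the 36 pairs the ratios of the groups did not overlap, which gave this smallest p (0.15 after Benjamini-Hochberg adjustment over the 36 pairs), so that no pair could pass 0.05. The same lack of overlap was seen in 30.2% of all pairs of tested genes and in 53.9% of the pairs of genes called higher. The largest shift was in the log2 ratio of *Pmvk* to *Fdps*, from -3.16 ± 0.12 in the control libraries to -3.86 ± 0.15 in the DHT libraries (SD, n = 3). The ratio of *Acat2* to its pathway neighbour *Hmgcs1* was higher by 0.54 on the log2 scale (SE 0.04) with DHT, and that of *Fdps* to *Fdft1*, the next enzyme, by 0.59 (SE 0.05). The ratio of *Mvd* to *Idi1* differed between groups by 0.03 (SE 0.04) and that of *Hmgcs1* to *Mvk* by 0.01 (SE 0.07), with overlapping groups. Along the pathway the estimated log2 fold change was above 1 at *Acat2*, below 1 from *Hmgcs1* to *Pmvk*, above 1 from *Mvd* to *Fdps* and below 1 at *Fdft1* and *Sqle*. The 95% confidence intervals of *Mvd* (0.92 to 1.20) and *Idi1* (0.91 to 1.16) in the limma fit included 1.

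Levels were compared between genes as normalized counts per kilobase of annotated exonic length. Only unique reads were counted, so levels of genes that share sequence with others, *Fdps* and *Acat2* most among the 9, may be understated. *Hmgcs1* was highest in control GCs, at 3119 ± 49.0 per kilobase, above 97.0% of tested genes with a length. *Fdft1* (812 ± 54.7), *Fdps* (745 ± 80.9), *Mvd* (667 ± 43.4), *Sqle* (642 ± 42.9) and *Acat2* (610 ± 30.3) followed, and within these 5 each gene overlapped in range with the next. *Idi1* (346 ± 17.9), *Mvk* (289 ± 18.4) and *Pmvk* (204 ± 6.49) were lowest, and none of them overlapped with a neighbour in the order. The highest and the lowest gene differed 15.3-fold in control and 16.2-fold in DHT-treated GCs. In DHT-treated GCs the order was *Hmgcs1* (5312 ± 189), *Fdps* (1943 ± 156), *Acat2* (1510 ± 24.4), *Fdft1* (1409 ± 58.2), *Mvd* (1393 ± 88.5), *Sqle* (1135 ± 43.0), *Idi1* (709 ± 36.4), *Mvk* (487 ± 26.5) and *Pmvk* (327 ± 9.32). *Acat2* moved from the 6th to the 3rd place, and among neighbours only *Fdft1* and *Mvd* then overlapped. With the length of the longest transcript in place of the exonic length, 4 of the 9 genes kept their place in control GCs, *Hmgcs1*, *Idi1*, *Mvk* and *Pmvk*. With that length *Fdps* was 2nd and *Acat2* 5th in control GCs, and every gene kept its place in DHT-treated GCs.

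**Figure D2:**
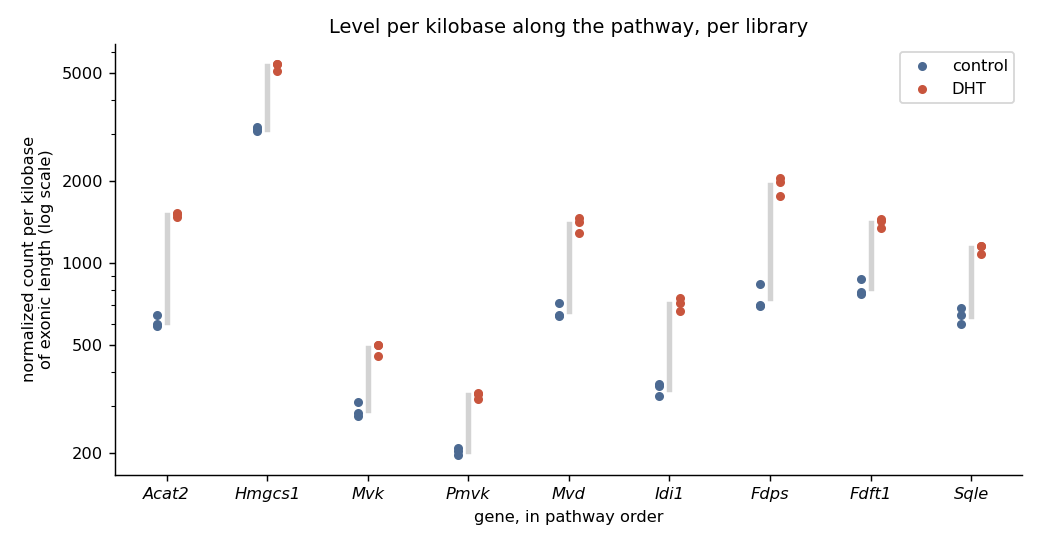
Normalized count per kilobase of exonic length (log axis) for the 9 genes in pathway order, with 1 point per control (blue) and DHT (red) library and a grey bar between the group means. *Hmgcs1* lies highest in both groups and *Pmvk* lowest.

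Within a group most of the 9 genes had their extremes in the same libraries. Control replicate 2 held the highest control value for 8 of the 9 genes, the exception being *Mvk*. Control replicate 1 held the lowest control value for 7 of the 9, the exceptions being *Hmgcs1* and *Fdft1*. DHT replicate 1 held the lowest DHT value for 8 of the 9, all but *Pmvk*. *Mvk* and *Pmvk* followed the others least. Over the 6 libraries, the correlation of a gene's deviations from its group means with the mean deviation of all 9, itself included, was 0.47 for *Mvk* and 0.34 for *Pmvk*, and 0.76 to 0.97 for the other genes. The mean of the 9 genes on the log2 scale had a pooled SD within groups of 0.063, small beside their median change of 0.82.

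**Figure D3:**
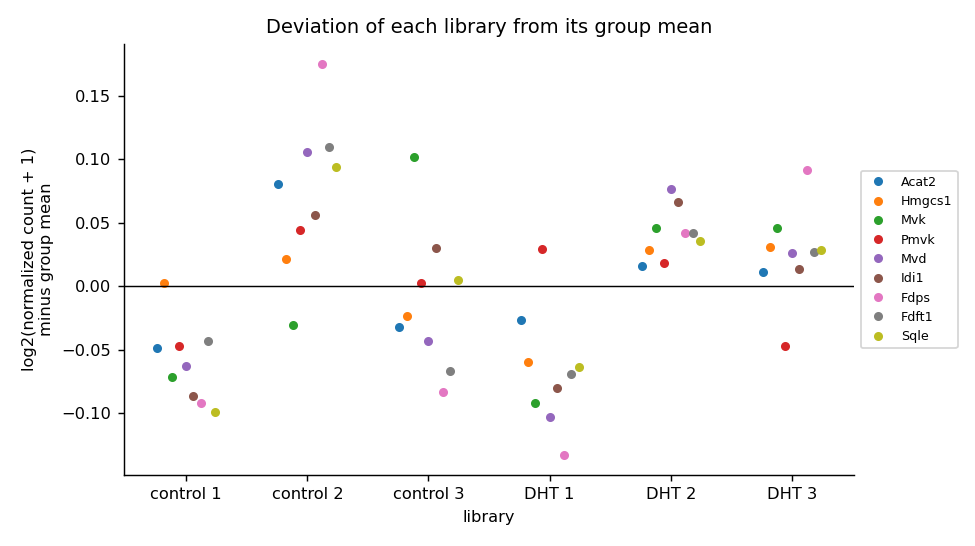
Deviation of log2(normalized count + 1) from the group mean (vertical axis) for the 9 genes (colours) in each of the 6 libraries (horizontal axis). Most points of control replicate 2 lie above 0 and most points of control replicate 1 and DHT replicate 1 lie below 0, all within 0.18 of the group mean.

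Other genes encode thiolases that carry out the same reaction as *Acat2*. *Acat1*, the mitochondrial thiolase, had 1956 to 2069 counts in control and 2042 to 2229 in DHT-treated GCs, with overlapping groups and a log2 fold change of 0.07 (adjusted p = 0.412). *Acat3*, a close copy of *Acat2*, had only 14.8 to 27.9 counts in control and 31.6 to 42.4 in DHT-treated GCs. Its groups did not overlap, but its log2 fold change of 0.74 (SE 0.28) did not pass (adjusted p = 0.134). *Idi2* was not analysed here.

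Downstream of squalene epoxide, 10 of the 11 genes of the arm from lanosterol synthase to cholesterol were called higher, with a median log2 fold change of 0.74. The largest were *Tm7sf2* (1.32) and *Nsdhl* (1.30), which act on the sterol ring, followed by *Cyp51* (1.07), the lanosterol demethylase, and *Msmo1* (1.02). *Lss*, which closes the sterol ring directly after *Sqle*, rose by 0.74. *Lbr*, which also serves as a nuclear envelope protein, had a log2 fold change of 0.25 and did not pass (adjusted p = 0.0596). The list was drawn up with earlier results of these libraries known.

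The branches that leave the mevalonate arm for products other than sterols gave no call. None of 18 genes of the isoprenoid branch passed the test in either direction, with a median log2 fold change of 0.00077 and a range of -0.13 to 0.22. By the same rule 6.52% of all genes tested were called higher and 4.66% lower. At these shares a list of 18 genes would hold few calls. *Ggps1*, which extends farnesyl diphosphate to geranylgeranyl diphosphate, had 1644 to 1771 normalized counts in control and 1576 to 1689 in DHT-treated GCs, and the log2 ratio of *Fdps* to *Ggps1* rose from 0.87 ± 0.20 to 2.31 ± 0.15 (SD, n = 3, exact permutation p = 0.1, two-sided). The lowest value of the list was that of *Fnta*, a subunit shared between prenyltransferases (-0.13, adjusted p = 0.0606). The highest were those of *Pdss1* and *Pdss2*, which make the ubiquinone side chain (0.22 and 0.21, adjusted p = 0.183 and 0.175).

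Of 10 genes that sense or regulate sterols, 3 were called higher, 1 lower and 6 did not pass. *Srebf2*, which encodes SREBP2, rose by 0.49 and *Srebf1* by 0.42. *Insig1*, which retains the SREBP complex in the endoplasmic reticulum, had 3699, 4013 and 4624 normalized counts in control and 6637, 7021 and 6641 with DHT, and its log2 fold change was 0.72 (SE 0.07, adjusted p = 0.000435). *Mbtps1*, the protease that makes the first cut of SREBP, fell by 0.25. The genes for the partner of SREBP, *Scap* (0.06), and for the second retention protein, *Insig2* (-0.08), did not pass.

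Of 12 genes that supply acetyl-CoA or NADPH, 4 were called higher, 2 lower and 6 did not pass. *Acss2*, a cytosolic acetyl-CoA synthetase, rose from 1009, 774 and 929 normalized counts to 1644, 1798 and 1972 (adjusted p = 0.000423). *Acly*, ATP citrate lyase, rose by 0.54 on the log2 scale and *Slc25a1*, the citrate carrier, by 0.43. For NADPH the members differed in direction, since *Idh1* rose by 0.46 while *G6pdx* and *Pgd*, the dehydrogenases of the pentose phosphate pathway, fell by 0.33 and 0.47. Of 6 genes of sterol-regulated enzyme turnover, *Rnf145* (0.23) was called higher, *Erlin1* (-0.24) and *Erlin2* (-0.16) lower, and 3 did not pass.

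**Figure D4:**
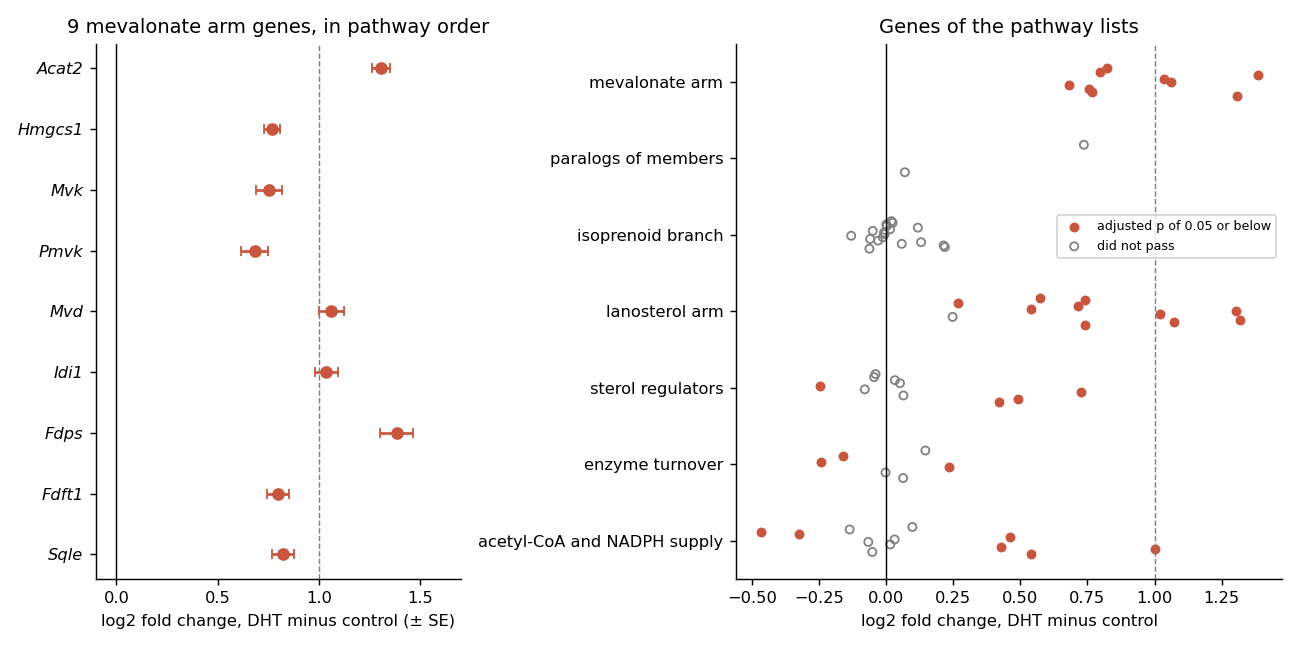
Log2 fold change of DHT minus control (horizontal axes) for the 9 genes with SE (left) and for each gene of the 7 lists (right), where filled points have an adjusted p of 0.05 or below, open points did not pass and dashed lines mark a value of 1. The 9 genes lie between 0.68 and 1.38, while all 18 isoprenoid branch genes lie between -0.13 and 0.22.

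For 5 of the 9 genes, reads cannot be fully told apart from those of other genes, since copies or overlapping genes share their sequence, only unique reads were counted and the use of strand is not given in the sources used here. Of the 100-base windows of the longest coding transcript, 75.8% of those of *Fdps* also occurred in transcripts of other annotated genes, 35.3% of those of *Acat2*, 27.6% of those of *Idi1*, 21.5% of those of *Fdft1* and 10.8% of those of *Hmgcs1*. *Mvk*, *Pmvk*, *Mvd* and *Sqle* shared none. The windows are shorter than the paired reads described in the paper's methods, so these shares are not shares of reads. The copy of *Fdps* that was tested, *Gm3571*, had 9.29 to 12.9 normalized counts in control and 22.9 to 38.1 in DHT-treated GCs, far fewer than *Fdps*, with a log2 fold change of 1.28 (adjusted p = 0.0251). *Fdps* also overlaps *Gm43738* on the same strand over 1124 bases, or 26.7% of its exonic length. *Fdft1* overlaps *Ctsb* on the opposite strand over 774 bases, or 18.3% of its exonic length. *Ctsb* was the more abundant, with 16178 to 21732 counts, and fell by 0.26 (adjusted p = 0.0154), the direction opposite to that of *Fdft1*. The 4 genes without shared windows rose by 0.68 to 1.06 on the log2 scale.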

How the data were processed

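RNA was sequenced from 6 libraries of cultured mouse GCs, 3 control and 3 treated with DHT. Per the paper's methods and the submitters' processing notes, the authors trimmed reads with Trimmomatic 0.36, aligned them to GRCm38 with STAR 2.5.2b and used featureCounts of Subread 1.5.2 to count uniquely mapped reads over exons. The deposited signal is taken here as a normalized count. The authors analysed their counts with DESeq2, and the values of each library are multiples of 1 step, as counts divided by a size factor would be, but the scaling itself is not described in the sources used here. The table also holds the authors' own fold changes and p-values, and a second deposited table holds a subset of its genes. Neither was used. The annotation release and the strand setting are not given in the sources used here.

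After addition of a pseudocount of 1, which understates changes of low genes, log2 values were fitted with limma 3.58.1 in R 4.3.3 (empirical Bayes, intensity trend). The fit took the 16292 genes whose mean was 10 or more. The other 8 genes fell below that minimum. P-values were adjusted by Benjamini-Hochberg over all genes tested, and genes were called at 0.05, with a log2 fold change above 1 as a second rule. Replicates are separate samples in the labels, and p-values measure only the spread between these samples. Ratios of genes were compared with exact permutation tests. Exonic lengths, positions and overlaps came from GENCODE M21 for GRCm38. Genes other than the 9 were described by fixed lists, and those named were at most 5 called genes per list with the largest change, the paralogs and the 5 genes most like the 9. *Lbr*, *Ggps1*, *Fnta*, *Pdss1*, *Pdss2*, *Mbtps1*, *Scap*, *Insig2*, *G6pdx*, *Gm3571*, *Ctsb*, *Zp3*, *Dppa3*, *Acta2*, *Myh11*, *Dcn*, *Kitl*, *Inha*, *Hsd17b1*, *Ptgfr* and *Prlr* were named after their values were seen. The scripts were tested on simulated data. Some genes of the lists are not reported here and are not counted. The members and lists were chosen with earlier results of these data known. The alternatives were pseudocounts of 0.5 and 8, no filter, a mean of at least 50, scaling by a trimmed mean of M values (TMM), quantile normalization, no intensity trend, the replicate number as a block and each library left out.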

Additional observations from a re-analysis of the deposited data

How the results depend on the processing

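All 9 genes were called higher under each of the 14 alternatives that were run, and the largest adjusted p of any of them was 0.0128, for *Mvk* without the intensity trend. Their median log2 fold change ranged from 0.776 to 0.869, with both ends among the fits that left out 1 library. The number of the 9 above a log2 fold change of 1 was 4 in every alternative but 1, and 3 without control replicate 1. Of the genes in the neighbouring lists, 23 were called in the fit reported and 19 to 25 under the alternatives. Over all genes tested, 1063 were called higher and 760 lower, against 501 and 303 without the intensity trend, 633 and 357 with the replicate block, and 586 and 382 without DHT replicate 2 or 586 and 351 without DHT replicate 3. Calls above a log2 fold change of 1 went from 148 to 89 with a mean of at least 50, and to 96 without DHT replicate 3. Without control replicate 3 the counts were larger, with 1240 higher, 863 lower and 194 above a log2 fold change of 1. Control and DHT libraries of the same number deviated from their group means with correlations of 0.0058, 0.067 and -0.24 over all genes tested. Over the 9 genes alone these correlations were 0.41, 0.14 and -0.23. With 3 libraries per group such correlations cannot decide whether libraries of the same number came from the same pool. With the replicate block all 9 genes were called, with a largest adjusted p of 0.00535, and the block changed no call among them. Planned quasi-likelihood and Wald tests on read counts were not run, since the values are normalized and whole reads could not be established for 3 of the 6 libraries, and a comparison of the proteins was not made. With 3 pooled libraries per group, no exact test of a single value could go below 0.1.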

Other observations

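The genes whose profile over the 6 libraries was most like the mean profile of the 9 were sought among 11628 genes whose mean was 100 or more. The profile includes the difference between the groups, so r reflects that difference as well as the spread within groups. The 5 genes outside the 9 with the highest Pearson r over 6 libraries were *Dbi* (0.999), which binds acyl-CoA, *Abcg1* (0.999), a sterol exporter, *Tecr* (0.999), of very-long-chain fatty acid synthesis, *Slc1a5* (0.999), a glutamine transporter, and *Mmab* (0.998), which forms adenosylcobalamin. Their log2 fold changes were 0.41, 1.45, 0.57, 0.25 and 0.45. *Abcg1* had 187, 230 and 199 normalized counts in control and 526, 577 and 581 in DHT-treated GCs (adjusted p = 6.55e-05). Among the 9 themselves, r ranged from 0.987 for *Mvk* to 0.999 for *Mvd*, and 78 other genes had an r at least that of *Mvk*.

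*Mmab* also lies head to head with *Mvk*, as a look at the positions after its values were seen showed. It spans chr5:114431034-114444060 on the minus strand of GRCm38, and the annotated starts of the genes are 209 bases apart, with the *Mvk* stretch printed in the report lying between them. *Mmab* had 1167, 1228 and 1174 normalized counts in control and 1578, 1634 and 1676 in DHT-treated GCs, without overlap, and its log2 fold change was 0.45 (SE 0.05, adjusted p = 0.000445) beside 0.75 for *Mvk*. Among the 9 genes the only other annotated gene starting within 1000 bases on the opposite strand was *Gm48574* at *Idi1*, which was not analysed here.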
